A study of Mus musculus with 9 samples.

Results

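Mature olfactory sensory neurons (mOSN) were compared with Neurog1-positive precursors (GBC) through 1 messenger RNA library of each. The pair was chosen by the sample titles as the populations prepared with the same library kit, and makes up 2 of the 9 samples of the series and 2 of its 3 messenger RNA samples. Mice aged 4 weeks were the source of both, with the main olfactory epithelium as the tissue sorted. The mOSN library came from OMP-ires-EGFP positive cells, in which green fluorescent protein is made from the transcript of Omp, the olfactory marker protein. The GBC library came from Neurog1-EGFP positive cells, in which the same protein reports Neurog1, a proneural transcription factor. RNA of both was taken up in Trizol, selected for poly-A with the FastTrack Micro MAG kit and made into a library with the Illumina mRNA kit. The third messenger RNA sample holds horizontal basal cells (HBC), sorted with anti-CD54-PE and prepared with ScriptSeq, and its values stand only side by side with the others because the kit differs. The 3 samples of 5-hydroxymethylcytosine and 3 of 5-methylcytosine were not analysed here. The labels give no strain, no sex and no number of animals, and each sort holds whatever cells carry the reporter protein. With 1 library per group, the differences below carry no p-value and were not checked by a replicate. In bulk libraries such as these, fewer cells of a type and less RNA per cell cannot be told apart.

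The olfactory epithelium replaces its sensory neurons throughout life. Globose basal cells divide, pass through a Neurog1-positive neuronal precursor and become immature neurons that grow an axon to the olfactory bulb. A mature neuron carries immotile sensory cilia on its dendritic knob, where odorant receptors open cyclic nucleotide-gated and chloride channels, and it releases glutamate in the bulb. Its surface faces the nasal cavity, so that it lives beside detoxifying supporting cells and has a limited life span.

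Expression was measured as FPKM, the number of sequenced fragments of a gene relative to its transcript length and to the depth of the library. Values are given below in the order mOSN against GBC, and every log2 ratio is that of mOSN over GBC after adding 1 FPKM to each, which understates the difference of low genes. The sort genes were each higher in their own library. Omp measured 1487 against 427 FPKM, and Neurog1, at chr13:56351860-56353524 in build mm9, measured 0.0189 against 163 FPKM and 0.0538 FPKM in HBC. Neurog1 was thus near 0 in mOSN, whereas Omp was also abundant in the library labelled GBC, so that the GBC library was not free of transcripts of the mature neuron. Gap43, used as a marker of immature olfactory neurons, was abundant in GBC too, as given below. The words precursor level and precursor side therefore stand below for the GBC library, whatever cells it holds.

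Several features of the whole libraries bear on every value below. The deposited intervals imply 16516013 fragments in mOSN and 18087248 in GBC, and 11547 and 11395 genes reached 1 FPKM. The FPKM of all genes added up to 238529 in mOSN and 183744 in GBC, and the median log2 ratio over the 11936 genes with a mean of at least 1 FPKM was 0.25. Over the same genes that median was -0.07 with equal sums, where both libraries are rescaled to the mean of their sums, and 0.08 after median-of-ratios scaling. It was -0.04 by single conversion, where 1 factor per gene turns fragments into FPKM in both libraries in place of the authors' factors. Each list below is therefore read against the median of all genes, and the result of the single conversion is given where it moved the ratio of a named gene or a list's counts by over 1.5 times. The 4 Y-linked genes Ddx3y, Eif2s3y, Kdm5d and Uty together had 2 implied fragments in mOSN and 965 in GBC, and Xist, the noncoding RNA of the inactive X chromosome, measured 66.7 against 34.4 FPKM. These 5 genes were chosen after their values were seen, and whether the sex of the animals bears on any other gene was not tested. Markers of other cells of the mucosa were present in both libraries, at summed levels that differed widely between lists. Sustentacular cell markers summed to 298 FPKM in mOSN and 95.2 in GBC, erythroid markers to 81.8 and 299, and macrophage markers to 16.7 and 14.3.

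**Figure D1:**
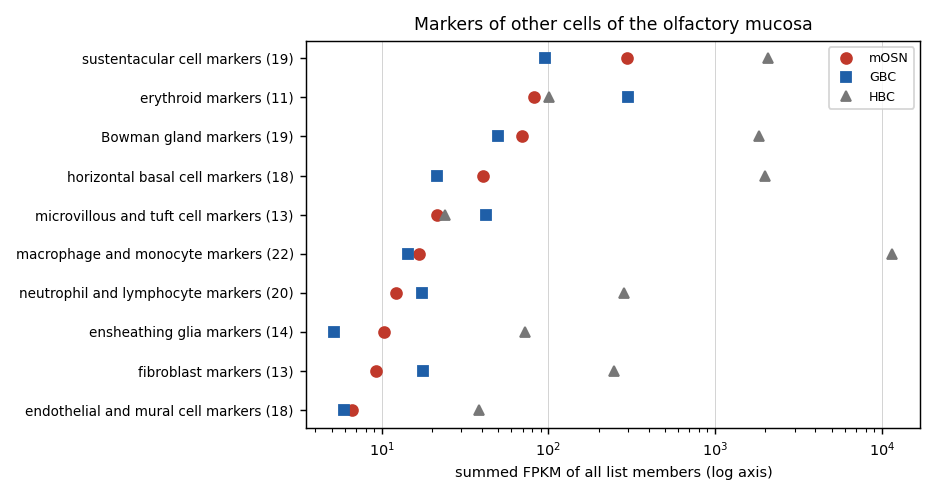
Summed FPKM (log axis) of marker lists of other cells of the olfactory mucosa in the mOSN, GBC and HBC libraries, with the number of list members in the tables in brackets. The sum of sustentacular markers was higher in mOSN (298 against 95.2 FPKM) and that of erythroid markers, mostly Beta-s, higher in GBC (299 against 81.8 FPKM).

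Most genes differed little between the mOSN and GBC libraries. Of the 11936 measured genes, 8032 (67.3%) lay within 2-fold. At least 2-fold higher in mOSN were 2744 genes, which is 23% of those measured, and at least 2-fold lower were 1160, which is 9.72%. By single conversion these shares were 18% and 16%. A gene was called when it differed 4-fold and reached 5 FPKM in the higher library. That held for 618 genes in mOSN (5.18% of those measured) and 274 in GBC (2.3%), and 205 of the former carry odorant or trace amine receptor symbols. The scaling moves this split: 69.3% of calls were higher in mOSN, but 54.9% by single conversion and 49.5% with equal sums. Of the 618 genes called in mOSN, 160 were under 1 FPKM in GBC, and of the 274 called in GBC, 133 were under 1 FPKM in mOSN. Over all 21909 genes, 10514 were under 1 FPKM in GBC and 10362 in mOSN. The rule for a call itself asks for a low value in the other library, so these counts are a description only.

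**Figure D2:**
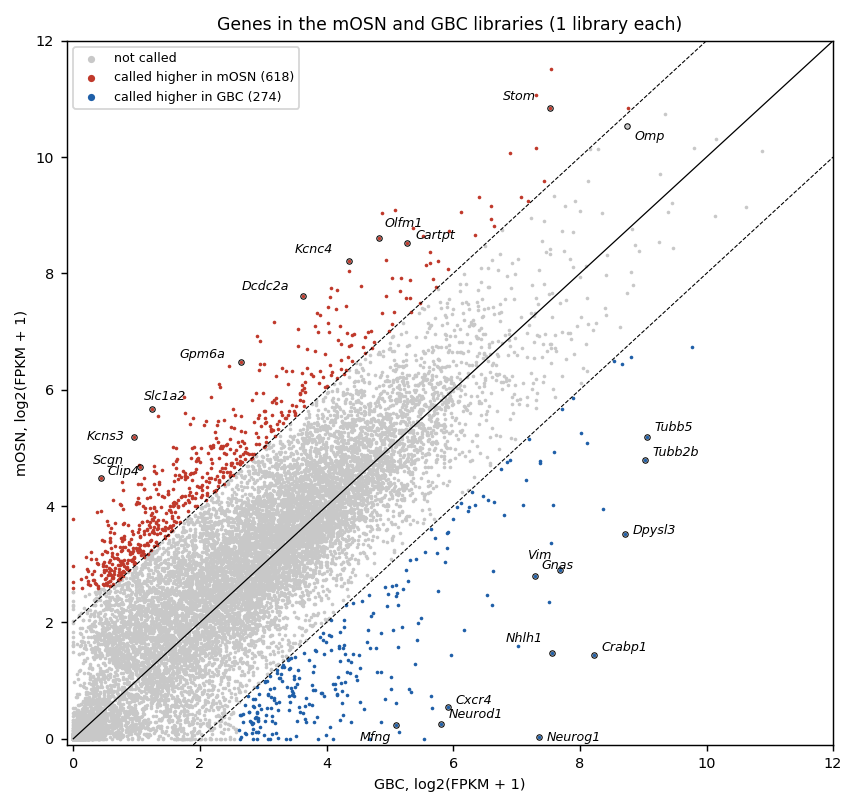
Each point is a gene, with log2(FPKM + 1) in GBC on the horizontal and in mOSN on the vertical axis; the solid line marks equality and the dashed lines a 4-fold difference. Of the coloured points, 618 were called higher in mOSN and 274 higher in GBC, and Neurog1 lies at the lower edge (0.0189 against 163 FPKM).

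Transcription factors of precursors were mostly lower in mOSN. Of 22 measured proneural and precursor factors, 17 were lower in mOSN by 2-fold or more and 1 was higher, with a median log2 ratio of -2.16 against 0.25 over all genes. Whatever their mean, 23 members reached 1 FPKM in GBC and 13 in mOSN, so that more of them passed the filter through GBC. Sox11, an activator of neuronal genes in newborn neurons, measured 4.57 against 91.2 FPKM. Nhlh2, a helix-loop-helix factor paralogous to Nhlh1, measured 2.23 against 42.01 FPKM. Both remained detectable in mOSN at a small part of their precursor level. Hes6, an antagonist of Hes1, measured 4.84 against 53.04 FPKM, and Insm1, a zinc finger factor of dividing neuronal progenitors, measured 13.5 against 48.8 FPKM. Myt1l, which represses genes of other lineages in neurons, hardly differed at 41.2 against 53.04 FPKM, and Sox12 was the member that was higher in mOSN, at 13.1 against 3.47 FPKM. Single conversion moved the log2 ratio of Sox12 from 1.66 to 0.47, under 2-fold, that of Insm1 from -1.78 to -3.25, that of Sox11 from -4.05 to -4.95 and that of Hes6 from -3.21 to -4.02.

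Some repressors of proneural factors were lower in mOSN too. Id2, which binds and blocks E proteins, measured 1.71 against 21.9 FPKM, and its relative Id3 measured 1.06 against 8.59 FPKM. Id4 measured 88.1 against 45.5 FPKM, just under 2-fold higher in mOSN, and changed side by single conversion (log2 from 0.94 to -0.29). Of the 7 measured Id, Hes and Hey genes, 3 were at least 2-fold lower and 0 higher, with a median of -0.97.

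Factors that specify the olfactory neuron itself were present in both populations. The list of 34 measured members had a median of -0.42, with 7 members above GBC by 2-fold or more and 11 below (2 higher and 16 lower by single conversion). Lhx2, a homeodomain factor needed for receptor choice, measured 109.5 against 169.7 FPKM, and Ebf1, which binds the Olf-1 site of olfactory genes, measured 70.8 against 117 FPKM. Atf5, the factor translated when a receptor is expressed, measured 1274 against 1129.7 FPKM. These 3 regulators lay within 2-fold, but single conversion moved the log2 ratio of Lhx2 from -0.63 to -1.66, that of Ebf1 from -0.71 to -1.09 and that of Atf5 from 0.17 to -0.56. The distal-less homeobox gene Dlx6 measured 1.1 against 17.1 FPKM, the retinoic acid receptor Rara 1.68 against 6.92 FPKM and the zinc finger factor Zfp423, a partner of Ebf proteins, 3.29 against 12.6 FPKM. By single conversion Dlx6 went from -3.11 to -3.79 and Zfp423 from -1.66 to -2.35 on the log2 scale. In the other direction, Nr3c1, the glucocorticoid receptor, measured 6.26 against 0.816 FPKM and was 7.67-fold higher (95% counting interval 6.26 to 9.49) in mOSN. The orphan nuclear receptor Nr2f6 measured 11.1 against 1.68 FPKM, and Rfx3, a regulator of ciliary genes, measured 39.1 against 14.6 FPKM. The log2 ratio of Nr2f6 was 2.17, and 0.98 by single conversion. Bcl6, a zinc finger repressor, measured 41.6 against 2.6 FPKM and was among the 30 largest ratios in mOSN.

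Promoters of called genes were searched for short motifs, some of them of factors named above. The search used RefSeq windows of GRCm38.p6 from 250 bases before to 50 bases after each start, on both strands. Windows matched 179 of the 274 genes called in GBC and 288 of the 413 genes called in mOSN that are not receptors, so the shares describe the matched genes only. The E-box CAGATG, bound by Neurog and Neurod dimers, stood in 14% of 250 windows of genes called in GBC and in 16.3% of 387 windows on the mOSN side. It stood in 11.8% of the windows of all measured genes and in 17.2% of all 32851 windows, so its share was not lower on the mOSN than on the GBC side. The related E-box CAGCTG, which cannot overlap a CAGATG match, stood in 18%, 18.6% and 14.1% of the GBC, mOSN and measured windows. The Ebf site, TCCC and GGGA separated by 2 bases of any kind, was rare, with 1.2%, 0.775% and 1.02%. The homeodomain core TAATTA stood in 4.4%, 3.62% and 3.67%, the CCAAT box in 40.4%, 32.8% and 38.3%, and the cell cycle element TTTGAA in 14.8%, 11.4% and 13.03%. The X-box, GTTNCC and GGNAAC separated by 2 bases of any kind and bound by Rfx dimers, stood in 1.6%, 0% and 0.599%. Matches of these last 5 motifs may share letters at their ends, and a match is a description and not a bound site.

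Windows of 2 precursor genes with a CAGATG match and of 2 mOSN genes with an Ebf match are shown, because they place the motif in genes on either side of the comparison. Nhlh1 (1.78 against 188 FPKM) encodes a helix-loop-helix factor and Gpc2 (0.655 against 49.3 FPKM) a glypican, a heparan sulfate proteoglycan of growing neurons. Acbd7 (137 against 17.6 FPKM) encodes an acyl-CoA binding protein and Gcnt7 (37.9 against 5.57 FPKM) a glycosyltransferase of the Gcnt family. Capitals mark the motif, read on either strand, and each window runs 5′ to 3′ in the direction of its gene. The windows are chr1:172057547-172057846 (minus strand), chr5:138279888-138280187 (minus strand), chr2:3335918-3336217 (plus strand) and chr2:172458547-172458846 (minus strand) in GRCm38.p6. The first base of the match lies -203, -46, -15 and -36 bases from the start in this order.
Nhlh1: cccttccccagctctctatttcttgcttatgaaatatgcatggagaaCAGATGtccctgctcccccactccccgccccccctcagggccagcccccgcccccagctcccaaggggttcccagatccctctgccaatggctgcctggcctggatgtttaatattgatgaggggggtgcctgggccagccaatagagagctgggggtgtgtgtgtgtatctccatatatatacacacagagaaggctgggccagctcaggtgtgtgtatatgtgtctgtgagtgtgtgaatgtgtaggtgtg
Gpc2: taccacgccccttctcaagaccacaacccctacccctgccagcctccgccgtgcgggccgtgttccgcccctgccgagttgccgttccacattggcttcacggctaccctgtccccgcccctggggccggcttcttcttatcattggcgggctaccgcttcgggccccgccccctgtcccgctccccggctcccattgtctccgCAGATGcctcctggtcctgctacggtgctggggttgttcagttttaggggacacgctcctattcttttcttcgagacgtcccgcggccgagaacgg
Acbd7: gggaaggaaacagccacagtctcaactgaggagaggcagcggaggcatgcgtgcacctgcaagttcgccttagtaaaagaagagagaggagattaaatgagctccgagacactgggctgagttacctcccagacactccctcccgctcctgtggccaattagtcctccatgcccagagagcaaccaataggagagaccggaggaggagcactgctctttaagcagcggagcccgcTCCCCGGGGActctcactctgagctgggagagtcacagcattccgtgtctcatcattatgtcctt
Gcnt7: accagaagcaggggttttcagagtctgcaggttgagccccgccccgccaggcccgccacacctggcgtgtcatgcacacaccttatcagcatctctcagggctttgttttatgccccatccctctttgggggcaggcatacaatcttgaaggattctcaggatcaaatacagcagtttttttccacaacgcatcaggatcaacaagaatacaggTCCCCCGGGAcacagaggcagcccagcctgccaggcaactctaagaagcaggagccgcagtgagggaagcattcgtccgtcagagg

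Cell division genes had medians below that of all genes, with a larger share of 2-fold lower members among the measured mitotic than the measured replication genes. Of 39 measured mitosis genes, 30 were lower in mOSN by 2-fold or more and 1 was higher, with a median of -1.54. Members at 1 FPKM, whatever their mean, numbered 12 in mOSN and 46 in GBC, so that more of them passed the filter through GBC. Ube2c, the ubiquitin-conjugating enzyme of the anaphase-promoting complex, measured 0.219 against 11.7 FPKM, and Ccnb1, the mitotic cyclin B1, measured 0.0839 against 4.95 FPKM. Racgap1, a part of the spindle midzone complex, stood above the rest at 5.56 against 37.9 FPKM. Of 35 measured replication genes, 12 were at least 2-fold lower and 0 higher, with a median of -0.60. The helicase subunits Mcm2 (0.382 against 4.18 FPKM) and Mcm6 (0.933 against 6.64 FPKM) were lower in mOSN, whereas Pcna, the sliding clamp that also serves repair, measured 27.2 against 17.98 FPKM.

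Among regulators of cell cycle exit, Cdkn1b, the inhibitor p27, was lower in mOSN at 0.664 against 14.5 FPKM. Cdk4, the kinase of cyclin D, measured 10.6 against 58.8 FPKM and was 5.55-fold higher (95% counting interval 5 to 6.18) in GBC. On the mOSN side were Cdk5r2 (51.7 against 10.5 FPKM), an activator of the neuronal kinase Cdk5, and Tob1 (47.2 against 14.2 FPKM), an antiproliferative protein. The log2 ratio of Cdk5r2 was 2.19 and 0.97 by single conversion. Over the 26 measured members of this list, 5 were at least 2-fold higher and 6 lower (1 higher and 10 lower by single conversion). The log2 ratio of Tob1 went from 1.67 to 0.90 in the same step.

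Most measured histone genes of the clusters were lower in mOSN, but their summed FPKM was not. Of 51 measured genes of the histone clusters, 38 were at least 2-fold lower and 2 higher (1 higher and 44 lower by single conversion), with a median of -1.37. All members of the list summed to 845 FPKM in mOSN and 831 in GBC. Whatever their mean, 32 members reached 1 FPKM in mOSN and 56 in GBC, so that more of them passed the filter through GBC. Most transcripts of this kind lack a poly-A tail and the copies are near-identical, so their FPKM in poly-A libraries are uncertain for a single gene. The linker histones H1f0 (18.3 against 74.6 FPKM) and H1fx (6.05 against 23.9 FPKM), which come from genes outside the clusters, were lower in mOSN too. Their log2 ratios went from -1.97 and -1.82 to -3.03 and -3.10 by single conversion. The replacement histones H3f3b (360.2 against 468 FPKM) and H2afz (106 against 85.4 FPKM) lay within 2-fold.

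Chromatin regulators differed in both directions as deposited, and mostly towards GBC by single conversion. The 51 measured Polycomb and heterochromatin genes had a median of -0.27, with 8 at least 2-fold higher and 11 lower (4 higher and 19 lower by single conversion). Ezh2, the methyltransferase of Polycomb complex 2, measured 4.07 against 20.3 FPKM and Hmga2, a chromatin protein of stem and progenitor cells, 0.0875 against 6.51 FPKM. Hmga2 was near 0 in the neurons. Bmi1 (24.01 against 6.68 FPKM), Cbx8 (26.9 against 7.39 FPKM) and Pcgf5 (10.2 against 0.751 FPKM), subunits of Polycomb complex 1, were on the mOSN side, Bmi1 under 2-fold by single conversion (log2 from 1.70 to 0.94). Cbx2, another subunit of complex 1, was on the GBC side at 10.17 against 32.2 FPKM (log2 from -1.57 to -2.32 by single conversion). In the BAF remodelling complex, Smarcd2 measured 26.4 against 164 FPKM. Actl6b, an actin-like subunit known from postmitotic neurons, measured 0.558 against 8.45 FPKM and was 15.2-fold higher (95% counting interval 10.3 to 23.4) in GBC. Its counterpart of dividing cells, Actl6a, measured 15.2 against 21.4 FPKM, within 2-fold. Smarca2, one of the alternative ATPases, was higher in mOSN at 9.68 against 3.22 FPKM, and the other, Smarca4, measured 34.7 against 66.4 FPKM. Single conversion moved Smarca2 from 1.34 to 2.13 and Smarca4 from -0.92 to -1.51 on the log2 scale, further apart. Of the 24 measured BAF genes, 2 were at least 2-fold higher and 4 lower (1 higher and 10 lower by single conversion). Among genes of DNA methylation and repair of methylated bases, Gadd45a (3.88 against 29.9 FPKM) and Gadd45g (0.912 against 10.5 FPKM), both stress-inducible proteins tied to demethylation, were lower in mOSN, and Gadd45a went from -2.66 to -3.41 on the log2 scale by single conversion. So was Cxxc5, a CpG-binding zinc finger protein, at 0.669 against 10.2 FPKM. Zbtb4 (10.1 against 2.56 FPKM) and Zbtb33 (12.2 against 3.71 FPKM), which bind methylated DNA, were higher in mOSN. The list held 5 genes at least 2-fold higher and 6 lower among 32 measured (4 higher and 12 lower by single conversion). The nuclear envelope list had a median of 0.03, or -0.27 with equal sums, and its member Lemd2 changed side, from a log2 ratio of 1.06 to -0.13, by single conversion.

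RNA-binding proteins were split by family member. Celf3 measured 26.2 against 114 FPKM and Celf4, a paralogous regulator of splicing and stability, 11.7 against 1.99 FPKM. Elavl4, a stabiliser of neuronal transcripts, was lower in mOSN at 17.9 against 77.3 FPKM, while its paralogue Elavl3 measured 159 against 149 FPKM (log2 from 0.09 to -0.67 by single conversion). The muscleblind genes Mbnl1 (27.2 against 6.04 FPKM) and Mbnl3 (13.02 against 2.51 FPKM), known for the switch from fetal to adult splicing, were higher in mOSN. Qk, the quaking splicing factor, measured 9.51 against 1.3 FPKM, and its log2 ratio of 2.19 was 1.15 by single conversion. The list of 35 measured members had 12 at least 2-fold higher and 5 lower (9 higher and 8 lower by single conversion), with a median of 0.20 that turned to -0.14 with equal sums.

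Neurite outgrowth genes lay mostly on the precursor side. Of 32 measured members, 17 were lower in mOSN by 2-fold or more and 3 higher, with a median of -1.21. Vim, the intermediate filament protein of progenitors, measured 6.49 against 204 FPKM and 189.8 FPKM in HBC. Stmn1, which destabilises microtubules, measured 105 against 877 FPKM, and Fscn1, an actin-bundling protein of filopodia, 0.757 against 17.9 FPKM. Gap43, the growth cone protein used as a marker of immature olfactory neurons, measured 32.8 against 277 FPKM. These 4 genes were each at least 8.32-fold higher in GBC. The members on the mOSN side were the tetraspan glycoprotein Gpm6a (88.1 against 5.28 FPKM), Nrn1l (173 against 18.8 FPKM), a neuritin-like anchored protein, and Stmn4 (229.7 against 85.3 FPKM). Gpm6a was 16.7-fold higher (95% counting interval 14.8 to 18.9) in mOSN, and its relative Gpm6b measured 10.1 against 14.2 FPKM. By single conversion the log2 ratio of Fscn1 went from -3.42 to -4.04 and that of Nrn1l from 3.14 to 2.54.

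Most tubulin genes were lower in mOSN. Of 13 measured tubulin genes, 7 were lower in mOSN by 2-fold or more and 1 higher (0 higher and 9 lower by single conversion), with a median of -1.12. Tubb5 measured 35.6 against 533 FPKM, Tubb2a 15.3 against 136 FPKM and Tubb3, the neuronal isotype, 86.01 against 407 FPKM. Tubb2c was the member on the mOSN side, at 89.98 against 37.4 FPKM. Tubulin genes have near-identical copies, among them Tubb2a-ps2, and fragments may be split between them. Among microtubule-associated proteins, Mapt (tau) measured 1.96 against 26.3 FPKM, whereas Eml2, an echinoderm microtubule-associated protein-like gene, measured 140.2 against 15.2 FPKM and its relative Eml5 27.1 against 5.98 FPKM. Mtap1b, a microtubule protein of axons, measured 318 against 343 FPKM. The 39 members counted 6 at least 2-fold higher and 7 lower, with a median of 0.11 that was -0.23 with equal sums. The conventional kinesin motors differed by gene. Kif5b measured 108 against 33.9 FPKM, Kif5c 19.5 against 58.9 FPKM and Kif5a 57.6 against 42.2 FPKM. Kif17, a motor of sensory cilia, was higher in mOSN at 6.44 against 1.3 FPKM. Kif19a, a motor that shortens microtubules at ciliary tips, was higher in GBC at 7.21 against 57.3 FPKM. The log2 ratio of Kif17 went from 1.70 to 1.04 by single conversion and that of Kif19a from -2.83 to -3.49.

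Genes of cilia, the organelle that carries odorant reception, had medians above that of all genes. Of 34 measured intraflagellar transport genes, 9 were at least 2-fold higher and 0 lower, with a median of 0.61, so that the higher share was near the 23% of all genes and the lower share under 9.72%. Ttc30b measured 33.4 against 5.06 FPKM and Traf3ip1 41.4 against 13.5 FPKM, both parts of the transport train that enters the cilium, and Traf3ip1 fell under 2-fold by single conversion (log2 from 1.55 to 0.87). Of 45 measured Bardet-Biedl and transition zone genes, 22 were higher and 0 lower (13 higher and 1 lower by single conversion), with a median of 0.95. Rp2h measured 125 against 19.1 FPKM and Pde6d 206 against 68.2 FPKM, proteins that shuttle lipid-modified cargo into cilia, and Mkks, a chaperonin-like BBS protein, 8.28 against 2.29 FPKM. Genes named for motile cilia had a median of 1.36, with 21 of 31 members at least 2-fold higher and 1 lower. Enkur measured 79.2 against 13.8 FPKM, Capsl 37.6 against 3.69 FPKM and Dnali1, an inner arm dynein light intermediate chain, 9.47 against 0.5 FPKM. Foxj1, the regulator of motile ciliogenesis, measured 45.8 against 14.4 FPKM in the same 2 libraries (log2 from 1.61 to 0.76 by single conversion). The axonemal dynein list had 3 genes with a row, of which 2 were higher in mOSN by 2-fold or more, Dnali1 and the intermediate chain Dnaic2 (11.7 against 1.28 FPKM). The medians of the intraflagellar transport, Bardet-Biedl and motile cilium lists stayed above the median of all genes under each scaling tried.

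**Figure D3:**
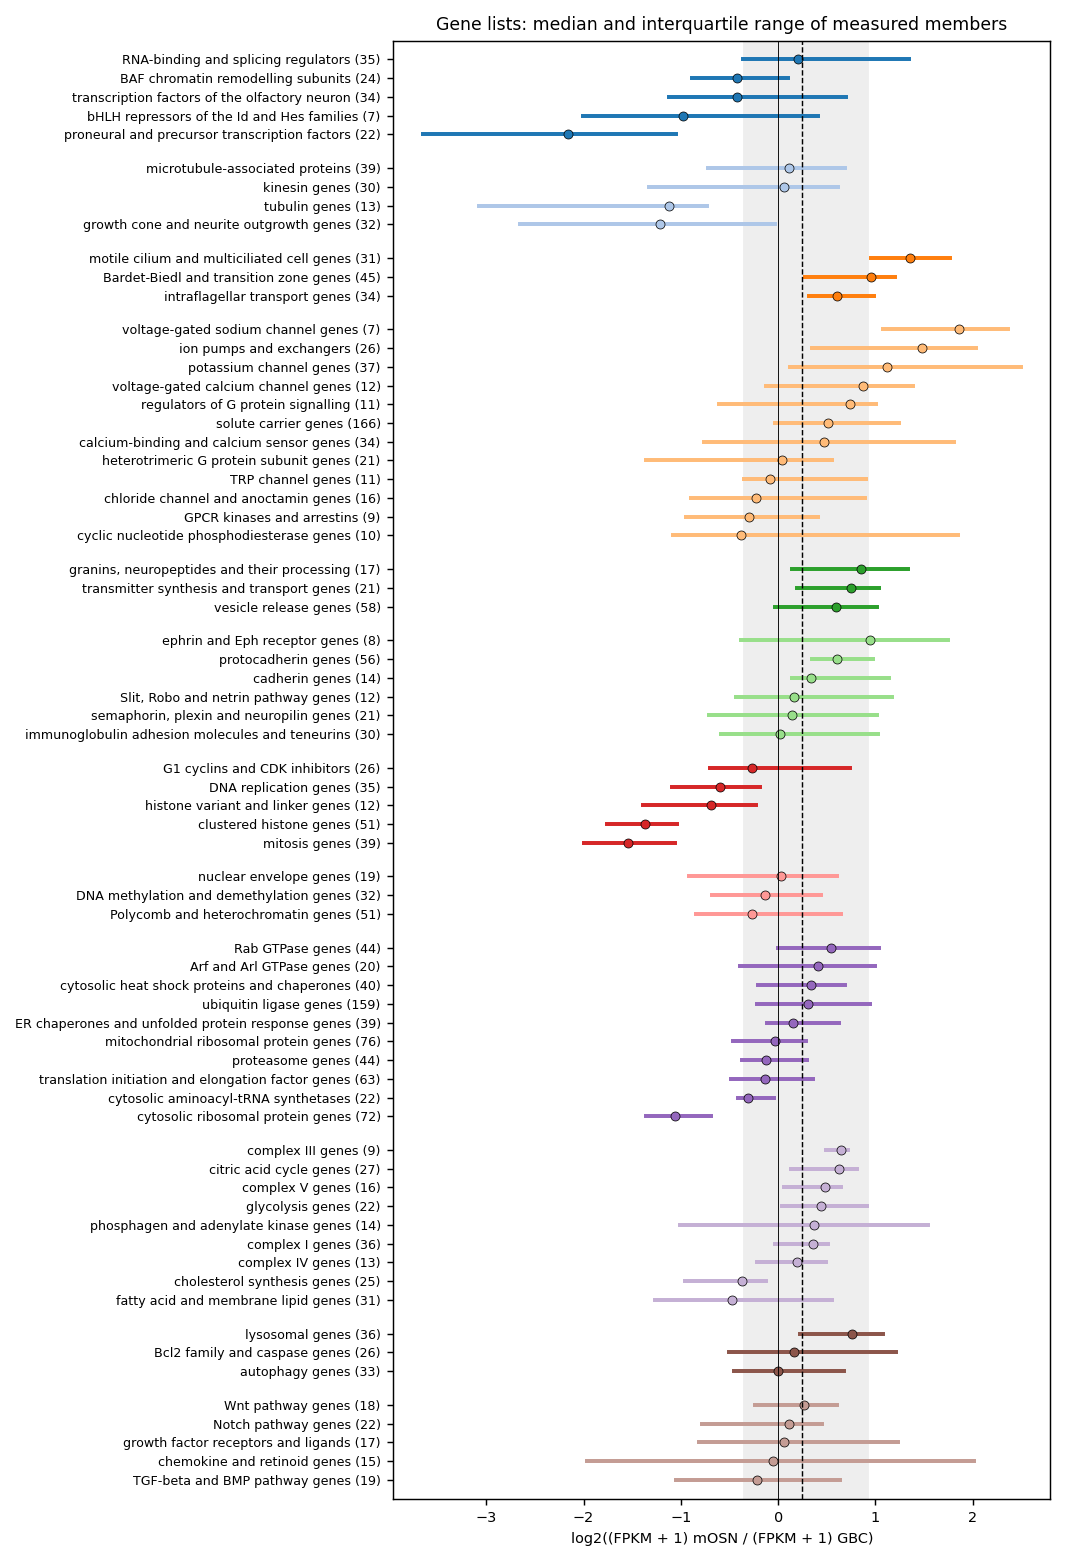
Median (point) and interquartile range (bar) of the log2 ratio of mOSN over GBC for each list with at least 5 measured members, whose number is in brackets; colours group lists by subject, the dashed line and grey band are the median and interquartile range of all genes. Voltage-gated sodium channels (1.85) and ion pumps (1.48) lie at the right, and proneural factors (-2.16) and mitosis genes (-1.54) at the left.

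Among genes of membrane excitability, the potassium, sodium and calcium channel lists had medians above the 0.25 of all genes. The TRP channel list (-0.08) and the chloride channel and anoctamin list (-0.23) had medians below it. Of 97 potassium channel genes with a row 37 were measured, and 20 of these were higher in mOSN by 2-fold or more and 5 lower, with a median of 1.12. Members at 1 FPKM numbered 34 in mOSN and 33 in GBC. Kcnc4, which encodes the fast-inactivating potassium channel Kv3.4, measured 297 against 19.4 FPKM and 3.26 FPKM in HBC. It was 15.3-fold higher (95% counting interval 14.7 to 15.9) in mOSN and was the potassium channel gene of the highest FPKM there. Its log2 ratio went from 3.87 to 3.12 by single conversion, a change larger than the counting interval. Hcn2, a channel opened by hyperpolarisation and cyclic nucleotides, measured 86.2 against 6.76 FPKM, with a log2 ratio of 3.49 that became 2.27 by single conversion. The Shaker-type subunits Kcna2 (44.9 against 6.56 FPKM), Kcna5 (53.6 against 8.24 FPKM) and Kcna6 (21.2 against 2.4 FPKM) were higher in mOSN together, Kcna5 with a log2 ratio that went from 2.56 to 1.92 by single conversion. The silent subunit Kcng1 measured 22.98 against 2.78 FPKM. On the GBC side, the inward rectifier Kcnj3 measured 0.0501 against 7.08 FPKM and the channel-interacting protein Kcnip3 0.0743 against 6.04 FPKM. Both were under 0.1 FPKM in mOSN, which is far under their precursor level.

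Sodium channel genes were few, and none was at least 2-fold lower in mOSN. Of 7 measured members 5 were higher in mOSN by 2-fold or more and 0 lower, with a median of 1.85. Scn9a, which encodes the Nav1.7 pore, measured 158 against 42.98 FPKM and was the pore subunit of highest FPKM. The beta subunits Scn4b (127 against 13.6 FPKM) and Scn3b (88.98 against 20.1 FPKM) were higher as well, and Scn4b was 9.3-fold higher (95% counting interval 8.84 to 9.79) in mOSN. Of 12 measured calcium channel genes 4 were higher and 2 lower. Their auxiliary subunits Cacnb2 (16.9 against 3.06 FPKM), Cacnb3 (127 against 36.98 FPKM) and Cacna2d1 (31.3 against 8.89 FPKM) were higher in mOSN, whereas the auxiliary subunit Cacng4 measured 15.02 against 30.4 FPKM. Single conversion took Cacnb3 from 1.75 to 0.95, under 2-fold, and Cacng4 from -0.97 to -1.64 on the log2 scale. TRP channel genes had a median of -0.08, and 3 of the 11 measured members were higher by 2-fold, a share near the 23% of all genes. Among these were Trpm7 (18.5 against 4.65 FPKM) and Trpc1 (22.1 against 4.89 FPKM, log2 from 1.97 to 1.21 by single conversion).

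Pumps and exchangers that hold the ion gradients were mostly higher in mOSN as well. Of 26 measured members 18 were higher in mOSN by 2-fold or more and 2 lower, with a median of 1.48. Atp1b1, the beta subunit of the sodium pump, measured 529 against 68.3 FPKM. Slc12a2, the cotransporter NKCC1 that loads olfactory neurons with chloride, measured 127 against 24.3 FPKM. The sodium-calcium exchanger Slc8a1 measured 26.6 against 2.92 FPKM, the calcium pump of the endoplasmic reticulum Atp2a2 124 against 35.2 FPKM, and the bicarbonate cotransporter Slc4a4 43.6 against 4.2 FPKM. The Slc4a4 row carries a failed estimate in the deposited mOSN table. On the log2 scale single conversion moved Atp1b1 from 2.93 to 2.04, Slc12a2 from 2.34 to 1.46 and Atp2a2 from 1.78 to 1.05, all still above 2-fold. Car2, a carbonic anhydrase that makes bicarbonate, was also higher in mOSN at 31.4 against 1.98 FPKM. Over 166 measured solute carrier genes, 55 were higher and 8 lower, with a median of 0.52.

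**Figure D4:**
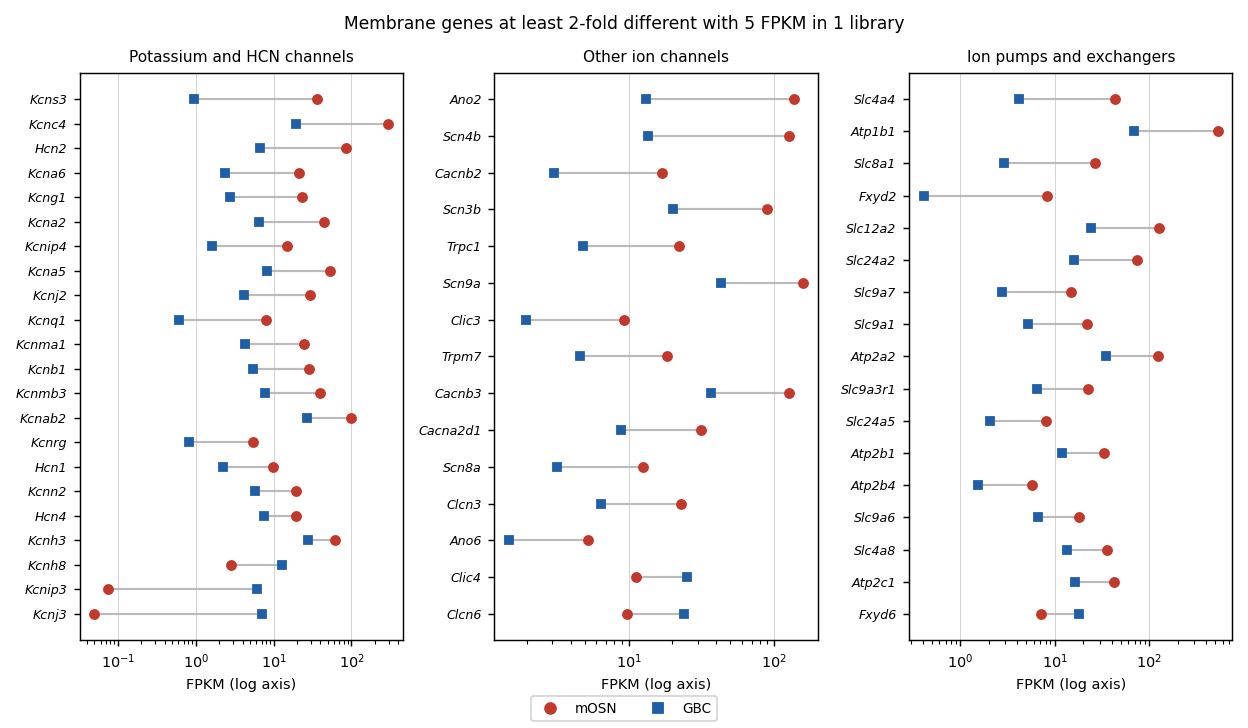
FPKM (log axis) in mOSN (circles) and GBC (squares) of channel, pump and exchanger genes that differed at least 2-fold and reached 5 FPKM in 1 library, apart from genes not reported here. Most circles lie to the right of their squares, and the exceptions include Kcnj3 (0.0501 against 7.08 FPKM) and Kcnip3 (0.0743 against 6.04 FPKM).

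Calcium sensor genes differed in both directions. Calm2, a calmodulin gene, measured 1121 against 285 FPKM and was among the most abundant transcripts of mOSN. Pcp4l1, a small calmodulin-binding protein, measured 424 against 60.1 FPKM, and Vsnl1, the visinin-like protein 1, 46.4 against 9.54 FPKM. Scgn, which encodes the calcium sensor secretagogin, measured 24.4 against 1.07 FPKM. Ncald, neurocalcin delta, was on the GBC side at 0.842 against 10.3 FPKM, as was the inhibitor of calmodulin kinase Camk2n1 (7.44 against 39.1 FPKM). The list had 12 members at least 2-fold higher and 6 lower among 34 (11 higher and 11 lower by single conversion), with a median of 0.47 that was 0.23 with equal sums.

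G protein subunits differed in composition. Gnas, the widely expressed stimulatory alpha subunit, measured 5.92 against 155 FPKM and 132 FPKM in HBC, and was 26.2-fold higher (95% counting interval 23.2 to 29.7) in GBC. Its olfactory paralogue Gnal measured 1141 against 157 FPKM, in the opposite direction. The beta subunit Gnb1 measured 1129 against 312 FPKM and Gnb2 1.18 against 19.8 FPKM, again in opposite directions, and the ratio of Gnb1 (1.85 on the log2 scale) was 0.95 by single conversion. The gamma subunit Gng2 was on the GBC side at 0.259 against 11.7 FPKM, as was the inhibitory alpha subunit Gnai2 at 1.12 against 10.2 FPKM. Gnao1, the alpha subunit of many neurons, hardly differed at 113 against 104 FPKM. The median of all 21 measured subunits was 0.04, and -0.29 with equal sums. The regulators that end G protein signals also differed by gene, with Rgs6 at 22.9 against 4.55 FPKM and Rgs2 at 0.505 against 12.1 FPKM. Of 10 phosphodiesterase genes 4 were higher and 4 lower. Pde7b, which degrades cyclic AMP, measured 126 against 15.5 FPKM, and Pde8a 5.74 against 17.7 FPKM.

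Opposite calls within 1 gene family were also found outside the G proteins. Symbols were grouped by stem, the letters before the last number. Of 61 stems with at least 2 called genes, 24 had a gene called in each direction, of which 2 are stems of small RNA and some others (Ankrd, Ccdc, Fam, Gpr, Rnf, Tmem) are naming classes rather than families. The number that calls spread at random over the stems would give was not computed. The count is thus a description, and whether opposite calls were frequent within families was not tested. Among flippases of the P4 type, Atp8b4 (2.98 against 42.4 FPKM) was on the GBC side and Atp8b3 (40.02 against 4.6 FPKM) on the mOSN side. Fatty acid desaturases had Fads2 (0.922 against 16.2 FPKM) on the GBC side and Fads6 (27.2 against 2.88 FPKM) on the mOSN side, and the sphingolipid desaturases had Degs2 (1.61 against 9.87 FPKM) on the GBC side and Degs1 (43.1 against 8.51 FPKM) on the mOSN side. Both pairs are enzymes of membrane lipids. Among inhibitors of protein phosphatase 1, Ppp1r14a measured 0.148 against 15.7 FPKM and Ppp1r14c 46.4 against 4.85 FPKM. The tetraspanins Tspan1 and Tspan7 measured 0.706 against 7.43 and 397 against 44.96 FPKM, and the coronins Coro1a and Coro6 measured 1.06 against 8.47 and 7.25 against 0.95 FPKM. The fucosyltransferase Fut1, which caps glycans, measured 1.07 against 10.8 FPKM, while Fut8, which adds core fucose, measured 40.5 against 7.65 FPKM. The MAP kinase phosphatases Dusp4 and Dusp14 measured 1.43 against 40.9 and 105 against 25.4 FPKM. Dusp14 and Coro6 lost their 4-fold calls by single conversion (log2 1.39 and 1.95), while Ppp1r14c went from 3.02 to 2.35 and Dusp4 from -4.11 to -4.71.

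**Figure D5:**
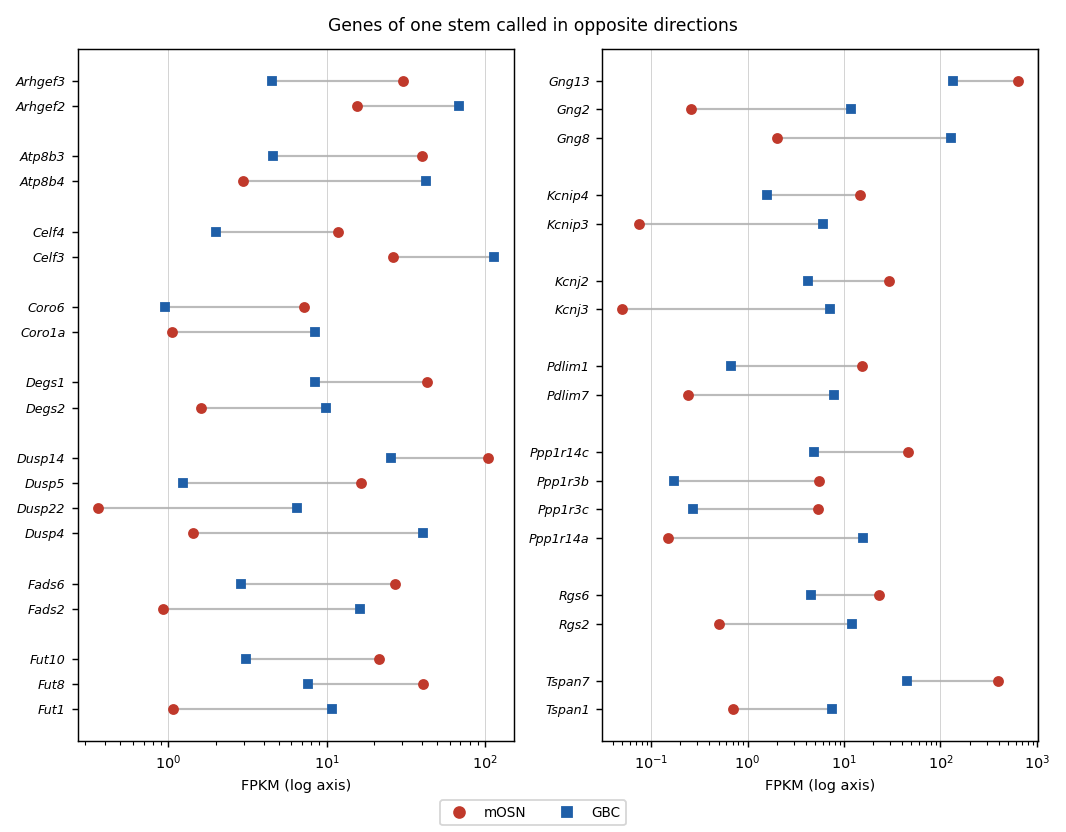
FPKM (log axis) in mOSN (circles) and GBC (squares) for genes of stems with at least 1 gene called in each direction, without naming classes, small RNA genes and near-identical globin copies. Within each block the order of circle and square turns, as for Atp8b3 (40.02 against 4.6 FPKM) and Atp8b4 (2.98 against 42.4 FPKM).

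Transmitter release genes lay on both sides, with a median above that of all genes. Of 58 measured members 16 were at least 2-fold higher and 6 lower, with a median of 0.60. Syngr1, a protein of synaptic vesicles, measured 82.4 against 8.77 FPKM, and Snap25, the SNARE of the plasma membrane, 161 against 32.3 FPKM. Syn2, a synapsin that tethers vesicles, measured 28.8 against 4.34 FPKM. The partner of Snap25, Stx1a, was on the GBC side at 24.4 against 60.8 FPKM, and the priming factor Unc13a measured 6.99 against 19.4 FPKM. Proteins of 1 release machine thus lay on either side, and the share of higher members was near the 23% of all genes. Rab GTPases, which direct vesicles, had a median of 0.54, and 12 of the 44 measured members were higher by 2-fold and 2 lower (5 higher and 4 lower by single conversion). That share of higher members was also near the 23% of all genes, and by single conversion it was under the 18% of all genes. Among them Rab21 measured 31.1 against 5.59 FPKM and Rab28 79.6 against 18.8 FPKM. Rab21 lost its 4-fold call by single conversion (log2 from 2.28 to 1.35), as did Syn2 (log2 from 2.48 to 1.84).

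A few genes of secretory granules were abundant, while 18 of 33 members of their list were under 1 FPKM in mOSN and 18 in GBC. Chga, the granule protein chromogranin A, measured 638 against 83.96 FPKM, and Cartpt, the precursor of the CART peptide, 367 against 37.5 FPKM. Cpe, a carboxypeptidase that trims peptide precursors, measured 264 against 104 FPKM. Scg2, secretogranin II, was on the GBC side at 1.98 against 33.98 FPKM, and so was Grp, the gastrin-releasing peptide, at 0.0855 against 34.2 FPKM. In the granin and neuropeptide list 6 members were at least 2-fold higher and 3 lower among 17, with a median of 0.85. By single conversion the log2 ratio of Cpe went from 1.34 to 0.59, under 2-fold, that of Chga from 2.91 to 2.32 and that of Cartpt from 3.26 to 2.65. Among secreted proteins outside that list, Olfm1, an olfactomedin, measured 388 against 27.4 FPKM, with a log2 ratio of 3.78 that became 2.36 by single conversion. Fstl5, a follistatin-like protein, measured 772 against 278 FPKM.

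Axon guidance and adhesion genes split by molecule. Sema7a, a membrane-anchored semaphorin, measured 111 against 25.7 FPKM, while Sema3a, a secreted repellent, measured 1.48 against 6.23 FPKM. Ephrin-A genes Efna3 (142 against 47.5 FPKM) and Efna5 (42.3 against 12.04 FPKM) and the receptors Epha5 (14.1 against 1.47 FPKM) and Epha7 (13.7 against 3.25 FPKM) were higher in mOSN, but Efna3 fell under 2-fold by single conversion (log2 from 1.56 to 0.65). The Eph list had only 8 measured members, 4 at least 2-fold higher and 2 lower, with a median of 0.94, 0.61 with equal sums and 0.24 by single conversion. Among the lower members, the receptor Ephb2 measured 0.203 against 8.13 FPKM. Unc5b, a netrin receptor, measured 33.4 against 7.25 FPKM, and Srgap2, a Slit-Robo GTPase activator, 12.5 against 1.67 FPKM. Unc5b lost its 4-fold call by single conversion (log2 from 2.06 to 1.16). Kirrel2, an adhesion molecule that sorts olfactory axons by activity, measured 239 against 50.5 FPKM and its relative Kirrel3 24.8 against 7.03 FPKM. Cntn4, a contactin, measured 271 against 85.98 FPKM, and Cntn2, the contactin TAG-1 of growing axons, 0.156 against 6.74 FPKM. Igsf9, another immunoglobulin adhesion molecule, was on the GBC side at 0.252 against 17.6 FPKM. The contactins thus lay on either side, and the median of the immunoglobulin list was 0.02, or -0.34 with equal sums.

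Protocadherins had a median of 0.61, above that of all genes, with 14 of 56 measured genes at least 2-fold higher and 1 lower (8 higher and 3 lower by single conversion). The share of higher genes is near the 23% of all genes and that of lower genes under 9.72%. By single conversion these shares were under the 18% and 16% of all genes. Whatever their mean, 60 members reached 1 FPKM in mOSN and 50 in GBC, so that more of them passed the filter through mOSN. Pcdhb1, the first gene of the beta cluster, measured 191 against 15.5 FPKM and was 12.3-fold higher (95% counting interval 11.6 to 13.1) in mOSN. Pcdhgc3, of the gamma cluster, was the member at least 2-fold lower, at 4.64 against 30.4 FPKM (log2 from -2.48 to -3.08 by single conversion). Isoforms of 1 cluster share exons or are close in sequence, so the assignment of fragments among them is uncertain. Cdh23, the cadherin of hair cell tip links, measured 13.98 against 0.301 FPKM. Gpc2 (0.655 against 49.3 FPKM) and Col9a2, a collagen chain (0.227 against 28.2 FPKM), were surface or matrix genes of the precursor side.

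Cytosolic ribosomal protein genes were lower in mOSN. Of 72 measured cytosolic ribosomal protein genes, 39 were at least 2-fold lower and 0 higher, with a median of -1.06. Their FPKM summed to 3539.7 in mOSN and 7641 in GBC. Rplp0, a stalk protein, measured 50.03 against 210.5 FPKM. Ribosomal protein genes have many processed pseudogenes, so values of single genes are uncertain. The 76 measured mitochondrial ribosomal protein genes had a median of -0.03, cytosolic aminoacyl-tRNA synthetases -0.31 and proteasome genes -0.12, and of these 3 lists together 2 members differed at least 2-fold. By single conversion 8, 3 and 3 members of them were at least 2-fold lower. Among elongation factors, Eef1a2, the form of differentiated neurons and muscle, measured 217 against 52.2 FPKM and lost its 4-fold call by single conversion (log2 from 2.03 to 1.38). Chaperones of the endoplasmic reticulum had a median of 0.15, or -0.20 with equal sums, with Dnajb9 (90.0 against 17.8 FPKM) and Dnajc3 (14.8 against 4.06 FPKM), cochaperones of the stress response, the highest by ratio. The 159 ubiquitin ligase genes had 36 members at least 2-fold higher and 10 lower (21 higher and 22 lower by single conversion), close to the shares of all genes, with a median of 0.31 that was -0.04 with equal sums.

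Few genes of the respiratory complexes I and V and of the citric acid cycle differed by 2-fold. Complex I genes had a median of 0.36, with 4 of 36 at least 2-fold higher and 0 lower, and complex V genes 0.48 with 3 of 16 higher. Citric acid cycle genes had a median of 0.62, and 5 of the 27 measured members were higher by 2-fold and 0 lower. These medians lay above the 0.25 of all genes, but in each list a smaller share than the 23% of all genes was higher by 2-fold. Complex III genes had a median of 0.64, or -0.04 by single conversion. The median of complex IV genes, 0.19, lay below that of all genes and was -0.37 by single conversion. Complex I had 1 higher and 0 lower by single conversion, complex V 1 higher and 0 lower by single conversion and the citric acid cycle 4 higher and 2 lower by single conversion. In glycolysis, Pgam1 (phosphoglycerate mutase) measured 193 against 29.7 FPKM and Aldoa (aldolase A) 179 against 43.3 FPKM, whereas Ldha, the lactate dehydrogenase subunit that favours lactate, measured 2.45 against 15.4 FPKM. Its paralogue Ldhb was far more abundant in both libraries at 260.3 against 449.5 FPKM. Ckb, brain creatine kinase, measured 603 against 144 FPKM, and Ak1, an adenylate kinase, 272 against 92.9 FPKM. Both buffer ATP, and of the 14 measured genes of their list 6 were at least 2-fold higher and 4 lower. Single conversion moved Pgam1 from 2.66 to 1.85 and Ckb from 2.06 to 1.30 on the log2 scale, both under 4-fold.

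Lipid synthesis genes leaned to the precursor side. Of 25 measured cholesterol synthesis genes 6 were lower in mOSN by 2-fold or more and 0 higher (0 higher and 10 lower by single conversion), with a median of -0.38. Fdps, farnesyl diphosphate synthase, measured 27.8 against 91.3 FPKM. Fabp5, a fatty acid binding protein, measured 1.72 against 61.7 FPKM and was 35.9-fold higher (95% counting interval 25.5 to 52.4) in GBC. Fasn, fatty acid synthase, measured 0.789 against 13.04 FPKM. On the mOSN side stood Acsl6, an acyl-CoA synthetase of neurons, at 212 against 52.9 FPKM, and Elovl7, an elongase of very long chains, at 4.23 against 0.251 FPKM. The fatty acid and membrane lipid list counted 6 members at least 2-fold higher and 11 lower among 31.

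Survival genes of the Bcl2 family lay on either side. Bcl2l2 (Bcl-w) measured 44.8 against 9.27 FPKM and Bcl2 9.78 against 2.41 FPKM, whereas Bcl2l1 (Bcl-x) measured 36.5 against 102 FPKM. All 3 encode proteins that protect from apoptosis. Trp53 measured 1.92 against 9.72 FPKM and Xiap, an inhibitor of caspases, 17.4 against 4.93 FPKM. The list median was 0.17, or -0.19 with equal sums. Of 36 measured lysosomal genes 13 were at least 2-fold higher and 2 lower, but 6 higher and 4 lower by single conversion. Their median was 0.76, or 0.39 by single conversion. Lamp1, a membrane glycoprotein of the lysosome, measured 173 against 47.4 FPKM (log2 from 1.85 to 1.11 by single conversion), and Ctsb, the protease cathepsin B, 101 against 31.7 FPKM. Autophagy genes had a median near 0, and 3 of the 33 measured members were higher by 2-fold (2 higher and 4 lower by single conversion).

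Receptors and modulators of signalling pathways differed one by one. Mfng, which glycosylates Notch, measured 0.182 against 33.1 FPKM and was 181-fold higher (95% counting interval 95.4 to 397) in GBC. The receptor Notch1 itself measured 0.629 against 4.93 FPKM, and Jag1, one of its ligands, 6.95 against 1.13 FPKM. Dner, a Notch-like neuronal protein, was higher in mOSN at 55.3 against 14.4 FPKM. The receptors of LIF and related cytokines were on the mOSN side, with Lifr at 18.6 against 1.17 FPKM and its partner Il6st (gp130) at 32.3 against 3.63 FPKM. Gfra1, the GDNF receptor, was on the GBC side at 1.03 against 10.2 FPKM. Fgf12, an intracellular FGF-like protein that binds sodium channels, measured 131 against 10.7 FPKM. Gdf11, a ligand known to restrain olfactory neurogenesis, measured 0.686 against 9.92 FPKM, and Bmp6 12.2 against 1.13 FPKM. Cxcl14, a chemokine, was listed at 0 in mOSN and measured 13.5 FPKM in GBC. Of the retinoid genes, the receptor Rarg (73.01 against 16.9 FPKM) and the degrading enzyme Cyp26b1 (5.31 against 0.175 FPKM) were higher in mOSN, and Crabp2, a retinoic acid carrier, was lower at 1.56 against 12.2 FPKM. Of these genes single conversion moved Dner from 1.87 to 1.26, Gdf11 from -2.70 to -3.34 and Bmp6 from 2.63 to 1.82 on the log2 scale.

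Some detoxification and redox genes were higher in mOSN, in a library that also held more transcripts of supporting cells. Of 16 measured P450 genes 8 were at least 2-fold higher and 1 lower, with a median of 1.05. Sult1d1, a sulfotransferase, measured 329 against 48.9 FPKM and Ephx1, the microsomal epoxide hydrolase, 15.6 against 1.98 FPKM, and single conversion raised the log2 ratio of Sult1d1 from 2.72 to 3.43. Beside them, 7 of 14 measured sustentacular markers were higher in mOSN by 2-fold or more and 0 lower, and 0 of 19 were at 0 there. P450 genes such as Cyp2a5 (46.5 against 10.4 FPKM) stand on both lists, and the part of supporting cells in these differences was not tested. In the Nrf2 and redox list 10 of 27 members were higher and 2 lower (5 higher and 4 lower by single conversion). Nfe2l2, the Nrf2 factor itself, measured 96.97 against 14.8 FPKM, and the redox genes Srxn1 (19.9 against 1.56 FPKM) and Prdx1 (80.2 against 19.4 FPKM) were higher too. Prdx2, a related peroxiredoxin, measured 78.9 against 277 FPKM and the ferritin light chain Ftl1, on the Nrf2 and redox list too, 88.9 against 372 FPKM. Those 2 were on the GBC side, where the sum of erythroid markers, mostly Beta-s, was higher as well (81.8 against 299 FPKM), and the part of red blood cells was not tested.

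Immediate early genes, which respond to activity and to cell dissociation, depended on the conversion. Their median was 0.65, 0.30 with equal sums and 0.06 by single conversion. Fosb measured 67.5 against 9.53 FPKM, Fos 108 against 38.4 FPKM and Dusp5 16.6 against 1.24 FPKM, while Jun measured 105 against 194 FPKM. Of 26 measured members 9 were at least 2-fold higher and 2 lower, but 3 higher and 7 lower by single conversion. Dusp5 went from 2.97 to 2.02 and Jun from -0.89 to -1.75 on the log2 scale in that step.

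Single genes outside these lists were among the largest ratios. On the mOSN side, Ephx4, a predicted epoxide hydrolase at chr5:107832532-107859050 in mm9, measured 83.9 against 4.47 FPKM and was 18.8-fold higher (95% counting interval 16.3 to 21.7). Stom, the membrane protein stomatin, reached 1843 against 183 FPKM and had the highest FPKM of the 30 genes ranked on that side. Endod1 (214 against 15.7 FPKM) encodes an endonuclease-domain protein, Manea (208 against 16.8 FPKM) an endomannosidase of glycan processing and Lrrn1 (158 against 13.4 FPKM) a leucine-rich repeat neuronal protein. The log2 ratio of Endod1 went from 3.69 to 3.03 by single conversion, and that of Mex3a on the GBC side from -4.44 to -5.06. Nap1l5, an imprinted gene of the nucleosome assembly family, measured 24.9 against 1.04 FPKM, and Tmc5, of the transmembrane channel-like family, 23.3 against 1.43 FPKM. On the GBC side, Qdpr, which regenerates tetrahydrobiopterin, measured 9.31 against 186 FPKM, and Ddah2, which degrades an inhibitor of nitric oxide synthase, 3.92 against 96.7 FPKM. Mex3a, an RNA-binding protein of progenitors, measured 0.803 against 38.3 FPKM and Rcor2, a partner of the histone demethylase Kdm1a, 0.605 against 29.4 FPKM. Tex15, known for its role in the male germ line, measured 0.742 against 39.3 FPKM. Ifitm2, an interferon-induced membrane protein, measured 2.64 against 70.9 FPKM and 77.7 FPKM in HBC, values given side by side because the HBC library was made with another kit. The largest ratios also include the small RNA genes Mir330, Mir1905, Mir715 and Mir425, whose rows rest on fragments of poly-A libraries and say nothing of the mature microRNA.

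At the other end, 10 abundant genes hardly differed. Pkm2, pyruvate kinase, measured 435 against 450.4 FPKM, Hnrnpa2b1, a splicing factor, 280.1 against 274 FPKM, and Ywhae, a 14-3-3 protein, 244 against 255 FPKM. The noncoding RNA Malat1 measured 123 against 117 FPKM and the septin Sept3 117 against 125 FPKM. These genes had an absolute log2 ratio under 0.1 by choice, and another scaling shifts them with the median of all genes.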

How the data were processed

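Poly-A RNA was sequenced from 1 library each of mOSN, GBC and HBC, grouped by title. Per the file headers, each deposited table holds the authors' FPKM for every gene with the bounds of its interval and a status flag. Bowtie, TopHat, Cufflinks and the build mm9 are named in the submitters' processing notes; annotation and options were not given in the sources used. The 22345 rows were summed to 21909 symbols (222 symbols had 658 rows). Fragments were read from the half-width of the deposited interval, 2 times the FPKM over the square root of the count. Among rows of at most 100 implied fragments, 69.0% in mOSN and 69.1% in GBC were whole to within 0.03, against 6% by chance. The fragments behind 1 FPKM of a gene differed between the libraries, over 10337 genes by a 2.26-fold span between the 5th and 95th percentiles, and how the authors' software set this was not tested. Exact Clopper-Pearson intervals (95%) on those fragments cover counting error only, since PCR copies are not independent molecules.

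Genes with a mean of at least 1 FPKM counted as measured, and a call needed a log2 ratio of 2 on the log2(FPKM + 1) scale and 5 FPKM in the higher library. No test was run. The comparison, the 85 gene lists and the motifs were chosen with earlier results of these data known, and 12 of 1829 list symbols were not matched. Named were Omp and Neurog1, the 30 largest ratios per direction at 20 FPKM, up to 6 members per list at 5 FPKM and 2-fold, genes of opposite calls within a stem and 10 abundant genes that hardly differed, without receptors and the best-known odorant signalling genes; some genes that the rule names are not reported here. Named after their values were seen were Actl6a, Atf5, Atp2a2, Cacng4, Calm2, Ccnb1, Ebf1, Elovl7, Foxj1, Gap43, Gnal, Gnao1, Gpm6b, H2afz, H3f3b, Hes6, Id4, Insm1, Jun, Kcna2, Kcna5, Kcng1, Kif5a, Ldhb, Lhx2, Mbnl3, Mcm2, Mtap1b, Myt1l, Notch1, Pcna, Rara, Rarg, Rfx3, Smarca4, Sox12, Stmn4, Stx1a, Tubb2c, Unc13a and Zbtb33. Of 456 named genes that differed 2-fold and have a single row interval, the deposited intervals overlapped for 6, all small RNA genes. Since these genes were chosen for their ratio and FPKM, few overlaps follow from the choice and do not bear on whether the differences would recur. Gene coordinates are those of the files in mm9, starts raised by 1, and promoter windows those of RefSeq in GRCm38.p6, matched by symbol and never combined with the former; those shown are the 2 per direction with the largest ratio and a match. The alternatives were pseudocounts of 0.1 and 5 FPKM, no filter, a filter at 20 FPKM, the highest row per symbol, a common sum of 1000000, equal sums (chosen after seeing the data), scaling by the median of ratios, 1 conversion factor per gene (single conversion), without rows of failed or low-data status, and intervals that do not overlap. The rules were tested on simulated data. Python 3.11.15, pandas 2.3.3, numpy 2.4.6, scipy 1.17.1 and matplotlib 3.10.9 were used.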

Additional observations from a re-analysis of the deposited data

How the results depend on the processing

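Calls depended on the floor, the pseudocount and the scaling. The 618 genes called in mOSN became 305 with a floor of 20 FPKM and 173 with a pseudocount of 5 FPKM, and the 274 called in GBC became 109 and 88. With 1 conversion factor per gene 443 genes were called in GBC. On a common sum of 1000000 957 were, and 805 in mOSN, but there the floor and the pseudocount also shrink against the values and 14428 genes pass the filter in place of 11936. An alternative chosen after seeing the data, equal sums on the FPKM scale, keeps both and gave 382 calls in mOSN and 389 in GBC. The share of calls higher in mOSN, 69.3%, was 54.9% with 1 conversion factor per gene, 49.5% with equal sums, 45.7% on the common sum of 1000000, 59.2% after median-of-ratios scaling and 73.7% with the floor of 20 FPKM. The floor and the pseudocount leave fewer genes by construction. The cause of the other shifts was not tested. Requiring that the deposited intervals of the libraries do not overlap left 608 and 268 calls. No filter on low values, a pseudocount of 0.1 FPKM, the highest row per symbol and leaving out rows of failed or low-data status stayed within 1.5 times of both counts. Of 841 list medians under the alternatives, 71 moved by at least 1.5-fold. Over the same genes, 18 of 85 list medians changed sign under equal sums, median-of-ratios scaling or 1 conversion factor per gene, none of them above 0.64 in size. Of 292 called genes among those the naming rule chose, 53 lost the call with 1 conversion factor per gene. Of 4735 values of named genes 567 moved by at least 1.5-fold, and 1 gene with a 2-fold difference changed sign, Lemd2, from 1.06 to -0.13 with 1 conversion factor per gene. No paired analysis was possible because each group is 1 library and the labels give no replicate numbers. Depth limits mainly genes under 1 FPKM, and variation between animals was not measured.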

Other observations

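Some gene groups outside the comparisons above are given as values only. The chloride channel and anoctamin list had 4 members higher by 2-fold or more and 3 lower among 16 (4 higher and 6 lower by single conversion, where 1 factor per gene turns fragments into FPKM), with the exchanger Clcn3 at 22.8 against 6.42 FPKM (mOSN against GBC) and its relative Clcn6 at 9.79 against 24.2 FPKM. Arf and Arl GTPases had 5 higher and 0 lower among 20 (2 higher and 3 lower by single conversion), where the share of higher members was near the 23% of all genes. Among the higher members were the ciliary GTPase Arl3 at 157 against 62.04 FPKM and Arl8b, which moves lysosomes, at 40.6 against 11.9 FPKM. Among cytosolic chaperones the Hsp40 gene Dnajb4 measured 26.5 against 6.14 FPKM, while Fkbp5, a cochaperone of the glucocorticoid receptor, measured 3.06 against 14.9 FPKM. That receptor, Nr3c1, had the opposite ratio (6.26 against 0.816 FPKM). Of the Wnt pathway genes, 1 of 18 was higher (0 higher and 3 lower by single conversion), Lgr4 at 10.3 against 3.08 FPKM, and the planar polarity gene Vangl2 was lower at 0.381 against 5.83 FPKM. The glutamine transporter Slc38a1 measured 3.12 against 18.4 FPKM and the vesicular amino acid transporter Slc6a17 22.9 against 4.4 FPKM. Bowman gland markers summed to 69.8 FPKM in mOSN and 49.8 in GBC, with 4 members higher by 2-fold or more and 2 lower among 11 (2 higher and 2 lower by single conversion).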
